A study of Rattus norvegicus with 8 samples.

Results

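The genes described here control the small GTPase Ras in primary ventricular cardiomyocytes of newborn rats. They are 2 Ras genes (Hras and Nras), 5 genes of guanine nucleotide exchange factors (Rasgrp1, Rasgrp2, Rasgrp3, Sos1 and Sos2) and 2 genes of GTPase-activating proteins (Nf1 and Rasa1). These 9 of 14506 measured genes were chosen by name, with the difference between the groups already known, so their values, intervals and counts past a threshold are a description, no p-value is given for them, and they support nothing beyond themselves. Each gene was represented by the probe set that pairs with it alone and had the highest mean over the 8 arrays. All 9 had such a probe set, and Hras had 2. Cells plated in 6 cm dishes received the miR-222 precursor at 0.4 µM (4 arrays) or a scrambled control microRNA precursor at the same dose (4 arrays) by lipid transfection, and RNA was taken 48 h later. The scrambled RNA can act by itself, which the comparison cannot separate from the action of miR-222. The labels give no batch and no pairing, and do not say that arrays of a group came from separate cultures, so errors measure only the spread between these arrays, which may be technical.

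Ras is a switch at the inner face of the membrane. Exchange factors load it with GTP and turn it on, and GTPase-activating proteins make it hydrolyse that GTP and turn it off. Active Ras starts the Raf, MEK and ERK kinase cascade and also binds phosphoinositide 3-kinase. Sos proteins are brought to activated growth factor receptors by the adaptor Grb2. RasGRP1 and RasGRP3 are recruited by diacylglycerol, the lipid made by phospholipase C, and some RasGRP proteins respond to calcium. In the heart this pathway takes part in the growth of muscle cells, and inherited changes that raise its activity can thicken the ventricular wall.

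The agent was miR-222, a microRNA that binds target transcripts mainly through its seed, bases 2 to 8. The rat mature sequences are shown because the seed of the 3p strand is shared with miR-221, its neighbour on the X chromosome. They are from RefSeq (GRCr8, plus strand), at chrX:6022682-6022702 and chrX:6023246-6023268, with the seed in capitals. The labels do not give the sequence of the transfected precursor.
rno-miR-222-3p: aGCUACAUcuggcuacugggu
rno-miR-221-3p: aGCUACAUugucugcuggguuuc

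Array medians lay between 202 and 219 intensity units, and arrays of the same group correlated at 0.989 to 0.993 and arrays of different groups at 0.983 to 0.989. All 10 measured cardiomyocyte markers lay above the array median. Their summed intensity was 78437 to 79657 in miR-222 arrays and 83344 to 84555 in control arrays, with 1 marker higher and 3 lower at an adjusted p under 0.05 in limma. Among other cell types, summed smooth muscle markers were also lower, at 13534 to 16257 in miR-222 arrays and 17859 to 18210 in control arrays, with 3 of 7 markers lower by that threshold. Macrophage and leukocyte markers summed to 1264 to 1427 in miR-222 arrays and 1208 to 1269 in control arrays, with 1 of 10 higher. In bulk RNA, fewer cells of a type and less RNA per cell cannot be told apart. Intensities of different probe sets depend on the probes, so levels are compared between groups and not between genes.

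The genes of the Ras switch differed in both directions between miR-222 and control cells. Rasgrp1 was 3.54-fold higher and Rasgrp3 2.0-fold lower with miR-222. Nras and Sos1 were higher by 1.35-fold and 1.25-fold, and both GTPase-activating protein genes were lower, Nf1 by 1.30-fold and Rasa1 by 1.16-fold. Hras, Sos2 and Rasgrp2 had overlapping groups. Of the 9 genes, 3 were higher and 3 were lower at an adjusted p under 0.05 in the limma fit of all probe sets. Over all genes that threshold was passed by 24.7%, with 11.7% higher and 13.0% lower. In the same 6 genes the arrays of the groups did not overlap, as in 33.3% of all genes. Since the genes were chosen with this contrast known, nothing is read from these counts. The median absolute log2 difference was 0.32 over the 9 genes and 0.12 over all genes.

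**Figure D1:**
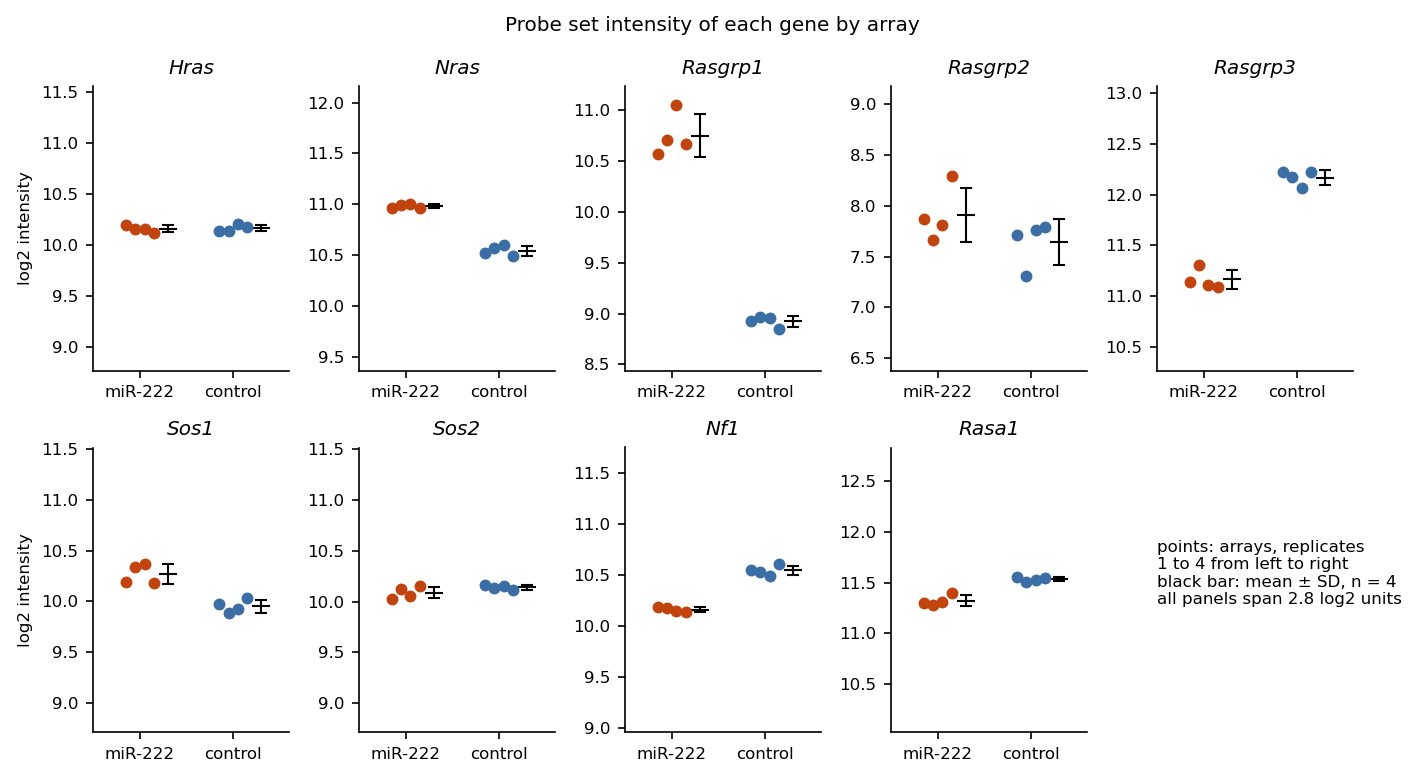
Log2 intensity (y axis) of the 9 genes in each array, with miR-222 arrays (orange) left of control arrays (blue); points are replicates 1 to 4 and black bars are the mean ± SD (n = 4). The groups lie apart in Nras, Rasgrp1, Rasgrp3, Sos1, Nf1 and Rasa1 and overlap in Hras, Rasgrp2 and Sos2.

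Nras, one of the Ras genes themselves, was measured as RNA by probe set 10817938. It had 1994, 2036, 2056 and 1997 intensity units in miR-222 arrays, against 1473, 1517, 1549 and 1436 in control arrays. Every miR-222 array was above every control array, and the arrays within a group lay close together. On the log2 scale the means were 10.98 ± 0.02 with miR-222 and 10.54 ± 0.05 with control (SD, n = 4 each), a difference of 0.44 (SE 0.04).

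Hras, its close relative, showed no such separation. Its brightest probe set, 10938817, measured 1176, 1141, 1145 and 1111 units in miR-222 arrays and 1126, 1128, 1181 and 1160.2 units in control arrays. The groups overlapped over most of their range. The log2 difference was -0.01 (SE 0.04), with a 95% interval of -0.10 to 0.08, which does not reach the 0.44 of Nras. That probe set is paired with a single cDNA record. The other Hras probe set, 10726734, is paired with 2 RefSeq transcripts and the same cDNA, and measured 800.1 to 902 units in miR-222 arrays and 782 to 864 units in control arrays. Its difference was 0.05 (SE 0.05, 95% interval -0.08 to 0.17), so both probe sets of Hras had overlapping groups.

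Rasgrp1 and Rasgrp3, whose proteins are recruited by diacylglycerol, went opposite ways. Rasgrp1, best known as the Ras activator of T lymphocytes, had 1515, 1671, 2125 and 1629 units in miR-222 arrays (probe set 10848393), against 485, 499, 498 and 461 in control arrays. The lowest miR-222 array was more than 3 times the highest control array, and miR-222 replicate 3 was the highest of all. The log2 means were 10.75 ± 0.21 with miR-222 and 8.92 ± 0.05 with control, a difference of 1.83 (SE 0.10). Among all 14506 genes this was the rise of rank 2. Without miR-222 replicate 3 the difference was 1.72.

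Rasgrp3, which acts on Ras and on the related GTPase Rap and is known from B lymphocytes and blood vessel cells, was lower. Probe set 10888404 measured 2265, 2537, 2219.8 and 2189 units in miR-222 arrays, against 4763, 4606, 4277 and 4779.9 in control arrays. Each miR-222 array lay below every control array, and the lowest control array was still well above the highest miR-222 array. The log2 means were 11.17 ± 0.10 with miR-222 and 12.17 ± 0.07 with control, a difference of -1.0 (SE 0.06), which was the fall of rank 49 among all genes.

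Rasgrp2, which acts mainly on Rap and is known from platelets, had 233, 203, 225 and 313 units in miR-222 arrays (probe set 10713402) and 209.96, 159, 217 and 221 in control arrays. The groups overlapped, with a high value in miR-222 replicate 4 and a low value in control replicate 2. The spread within groups was the largest of the 9 genes, 0.27 log2 units with miR-222 and 0.22 with control. The difference was 0.27 (SE 0.15, 95% interval -0.09 to 0.62). It was 0.14 without miR-222 replicate 4 and 0.16 without control replicate 2, so its size rested on these arrays. The level was close to the array medians of 7.66 to 7.77 log2 units, at 7.64 in control arrays.

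**Figure D2:**
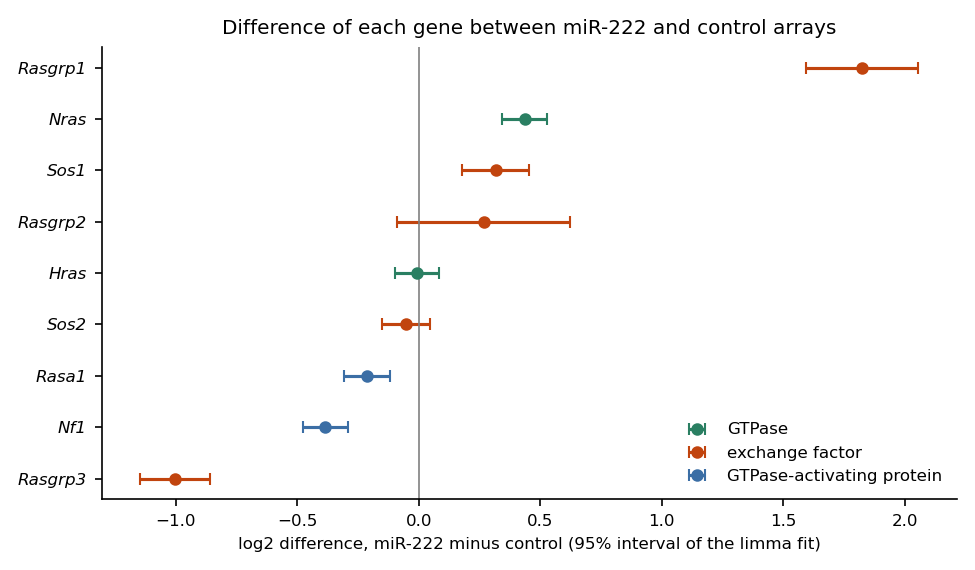
Log2 difference of miR-222 minus control (x axis) for each of the 9 genes, with the 95% interval of the limma fit, coloured by role. Rasgrp1 at 1.83 and Rasgrp3 at -1.0 stand at the ends, and the intervals of Rasgrp2, Hras and Sos2 include 0.

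Since RasGRP genes are known from blood and vessel cells, markers of those cells are given beside them. Of 10 measured T lymphocyte markers, 0 were higher and 1, Zap70, was lower, and 4 lay below the lower quartile of the arrays. Their summed intensity was 1226 to 1413 with miR-222 and 1302 to 1346 with control. Over 4 measured B lymphocyte markers the sum was 484 to 524 with miR-222 and 462 to 598 with control, and over 4 platelet markers it was 907 to 953 with miR-222 and 841 to 893 with control. In limma 0 markers of either list passed the threshold. At an unadjusted p under 0.05 the counts were 0 for B lymphocytes and 1, higher, for platelets. Summed endothelial markers were lower, at 1845 to 1944 with miR-222 and 2417 to 2612 with control, and 1 of 9 markers passed, Kdr, which encodes a receptor of vascular endothelial growth factor. Without Kdr the endothelial sum was 1578 to 1652 with miR-222 and 1589 to 1712 with control. The table holds no zeros and no detection calls. Whether these cells take part in the Rasgrp1 and Rasgrp3 differences was not tested.

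The genes closest to Rasgrp1 in pattern were taken by the root mean square distance of log2 values over the 8 arrays, after centring each gene on its mean. They were Plcxd3, a phospholipase C domain gene, at 0.11, the potassium channel subunit gene Kcnip2 at 0.14, the vesicle GTPase gene Rab3b at 0.16 and Irag1, a substrate gene of cGMP-dependent kinase, at 0.21. All 4 differed by 1.46 to 1.91 on the log2 scale and, like Rasgrp1, were highest in miR-222 replicate 3. The measure mostly reflects the step between the groups, which all 5 genes share.

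**Figure D3:**
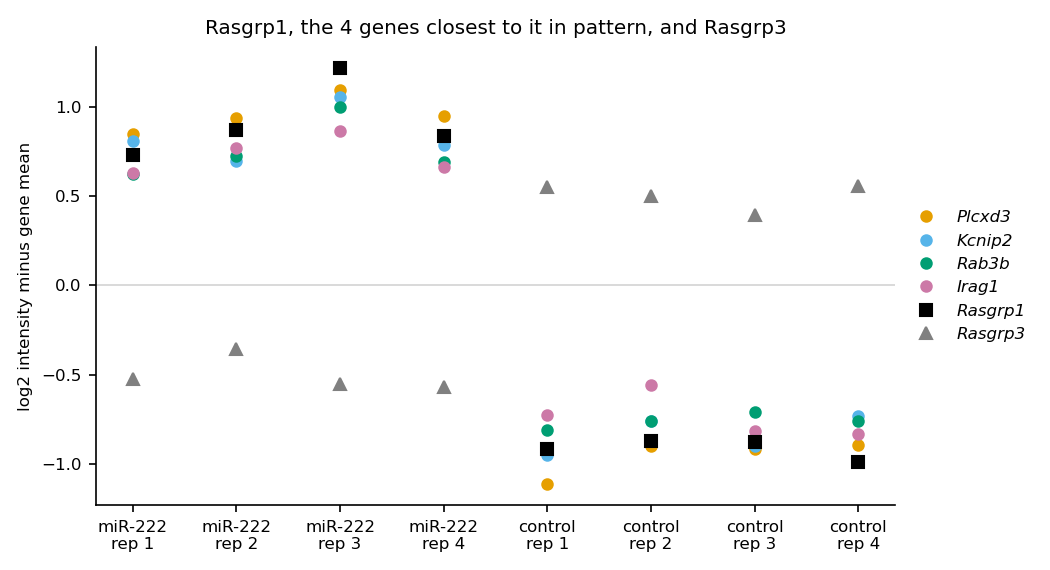
Log2 intensity minus the gene's mean over 8 arrays (y axis) for Rasgrp1 (black squares), the 4 genes closest to it (coloured circles) and Rasgrp3 (grey triangles), in miR-222 arrays (left) and control arrays (right). Rasgrp1 and its 4 nearest genes are highest in miR-222 replicate 3, while Rasgrp3 lies on the other side of 0 in every array.

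Of the exchange factors that couple receptors to Ras, Sos1 was higher and Sos2 was not separated. Sos1 had 1172, 1294, 1324 and 1161 units in miR-222 arrays (probe set 10888021), against 1003, 946, 973 and 1047 in control arrays. All miR-222 arrays were above all control arrays, with a narrow gap of 0.15 log2 units. The log2 means were 10.27 ± 0.10 with miR-222 and 9.95 ± 0.06 with control, a difference of 0.32 (SE 0.06). Sos2 measured 1046, 1112, 1061 and 1138 units with miR-222 (probe set 10890314) and 1146, 1126, 1136 and 1106 units with control. The groups overlapped, although the lowest pair of values was with miR-222. Its difference was -0.05 (SE 0.04), with a 95% interval of -0.15 to 0.05.

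Both genes that switch Ras off were lower. Nf1 encodes neurofibromin, whose loss causes neurofibromatosis, and had 1167, 1161, 1133 and 1127 units in miR-222 arrays (probe set 10736337), against 1504, 1482, 1443 and 1559.7 in control arrays. No miR-222 array reached the control range. The log2 means were 10.16 ± 0.03 with miR-222 and 10.55 ± 0.05 with control, a difference of -0.38 (SE 0.04).

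Rasa1, the GTPase-activating protein with domains that bind phosphorylated receptors, had 2514, 2492, 2535 and 2698 units in miR-222 arrays (probe set 10820245), against 3015, 2912, 2946 and 2985 in control arrays. The groups did not overlap, and miR-222 replicate 4 came closest to the control arrays. The log2 means were 11.32 ± 0.05 with miR-222 and 11.53 ± 0.02 with control, a difference of -0.21 (SE 0.04). By size this was the smallest difference among the 6 separated genes.

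No array was the highest or the lowest of its group in all 9 genes. Replicate 4 was most often at an end in both groups. With miR-222 it was the highest in 3 genes and the lowest in 4, and with control the highest in 4 and the lowest in 3. miR-222 replicate 3 was the highest of its group in 3 genes (Rasgrp1, Sos1 and Nras) and the lowest in 0. SDs within groups ran from 0.02 to 0.27 log2 units over the 9 genes, where the median over all genes was 0.09 with miR-222 and 0.08 with control.

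The promoters of Rasgrp1 and Rasgrp3, the 2 genes that differed most and in opposite directions, are shown for comparison. RefSeq windows of 250 bases before to 50 after the annotated start were given for 8 of the 9 genes, all but Sos2. The Rasgrp1 window is chr3:124684030-124684329 and the Rasgrp3 window chr6:25710542-25710841 (GRCr8, both on the minus strand), printed 5′ to 3′ along the gene, with matches to the GC box, GGGCGG on either strand, in capitals.
Rasgrp1: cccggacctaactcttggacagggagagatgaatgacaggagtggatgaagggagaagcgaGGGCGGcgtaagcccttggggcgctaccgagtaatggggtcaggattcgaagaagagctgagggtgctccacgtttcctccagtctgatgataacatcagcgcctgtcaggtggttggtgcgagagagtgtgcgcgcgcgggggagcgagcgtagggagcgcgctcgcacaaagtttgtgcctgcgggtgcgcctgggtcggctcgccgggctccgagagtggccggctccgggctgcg
Rasgrp3: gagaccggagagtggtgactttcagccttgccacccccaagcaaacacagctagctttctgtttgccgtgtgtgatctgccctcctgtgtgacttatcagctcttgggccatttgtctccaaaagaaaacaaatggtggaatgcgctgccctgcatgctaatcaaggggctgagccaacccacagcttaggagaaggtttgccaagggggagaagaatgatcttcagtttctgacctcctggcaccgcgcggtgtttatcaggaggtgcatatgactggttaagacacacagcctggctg

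The Rasgrp1 window holds 1 GC box and the Rasgrp3 window holds 0. A GC box was found in 6 of the 8 windows, all but those of Rasgrp3 and Nf1, and in 33.1% of all 33469 windows of this length. The share of G and C was 64.0% in Rasgrp1 and 52.7% in Rasgrp3, and ran up to 81.7% in Sos1, beside a median of 51.7% over all windows. The letters TGACTCA, which the factor AP-1 binds, were on neither strand of any of the 8 windows and in 4.63% of all windows. The core promoter letters TATAAA were also in 0 of the 8, and in 14.2% of all windows. CCAAT was in the Hras window alone, and in 37.5% of all windows. CCGGAA, an ETS core, was in those of Nras and Nf1, which differed in opposite directions, and in 15.0% of all windows.

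The wider Ras pathway was described with 154 further genes in 8 lists, of which 123 were measured. At an adjusted p under 0.05 in limma, 14 rose and 31 fell with miR-222, which is 36.6% of the measured genes beside 24.7% of all genes. By direction, 11.7% of all genes were higher and 13.0% lower, so the excess lay in the genes that fell. Of the 31 that fell, 10 were ERK output and feedback genes, listed with earlier results for some of them known. The median log2 difference of the 123 genes was 0.00, and that of all genes 0.01. With each array left out in turn the counts were 10 to 15 higher and 25 to 29 lower, and they were 15 and 29 without miR-222 replicate 3. The count of 14 was 9 with arrays scaled to a common median. It was 22 with the dim 40% of probe sets left out, a filter that also removes some of the 123 genes. Over all genes that filter raised the count past the threshold from 3580 to 4256, with fewer genes tested. Counts under it are therefore not comparable with the 24.7%.

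**Figure D4:**
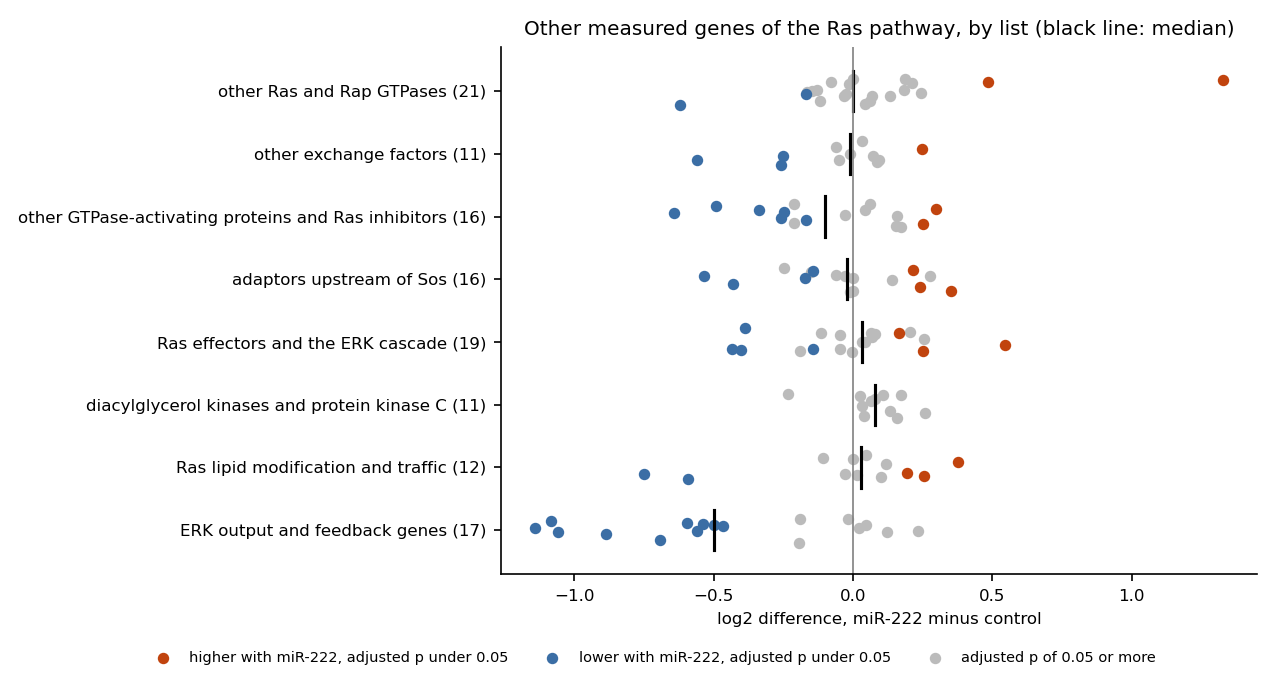
Log2 difference of miR-222 minus control (x axis) for the measured genes of each pathway list, with the number of genes in brackets; orange points rose, blue points fell, grey points did not pass, and black lines are list medians. The median of the ERK output and feedback genes is -0.50 and those of the other lists lie between -0.10 and 0.08.

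Among 21 other Ras and Rap family GTPases, 2 rose and 2 fell. Rasl11a, a small Ras-like GTPase, rose most, to 8.44 ± 0.08 log2 units with miR-222, against 7.11 ± 0.22 with control (SD, n = 4 each), a difference of 1.33 (SE 0.10, limma adjusted p = 1.61e-04). Its relative Rasl11b fell by 0.62 (SE 0.08, limma adjusted p = 0.001), so the pair differed in opposite directions. Rasl10a rose by 0.48 (SE 0.05). Rras, a Ras relative involved in integrin adhesion, fell by 0.17 (SE 0.05), a call lost when any single array was left out. With the dim 40% of probe sets left out, 4 of the 19 remaining genes of this list rose and 4 fell. Over all genes that filter left fewer, of which 4256 passed, beside 3580 of 14506 without it.

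Of 11 other exchange factor genes, 1 rose and 3 fell. Rasgrp4, another RasGRP gene, and the exchange factor genes Rasgrf1 and Rasgrf2 did not pass. In control arrays Rasgrp4 and Rasgrf1 lay below the array medians, at means of 6.36 and 7.08 log2 units. Rasgrp4 measured 0.07 (SE 0.08), Rasgrf1 0.08 (SE 0.12) and Rasgrf2 0.09 (SE 0.12), with limma adjusted p-values of 0.601, 0.71 and 0.669. Rapgef4, an exchange factor for Rap that cyclic AMP switches on, fell by 0.56 (SE 0.08, limma adjusted p = 0.00243). Rapgef5 and Rapgef6 fell by 0.25 and 0.26, and Ralgds, which links Ras to Ral, rose by 0.25. The call of Rapgef5 was lost without any single array, that of Ralgds in all such fits but the one leaving out control replicate 4, and that of Rapgef6 on leaving out miR-222 replicate 1 or control replicate 1, 3 or 4, so the list count of 3 lower was 1 or 2 in each such fit.

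Genes that restrain Ras and Rap, beside Nf1 and Rasa1, were measured in 16 cases, of which 6 fell and 2 rose. Rasal2, another Ras GTPase-activating protein, had 10.17 ± 0.08 log2 units with miR-222 and 10.81 ± 0.03 with control, a difference of -0.64 (SE 0.05, limma adjusted p = 1.40e-04). Spred2, which brings neurofibromin to the membrane, fell by 0.49 (SE 0.04, limma adjusted p = 2.65e-04). Sipa1 and Sipa1l2, of a family that acts on Rap, fell by 0.34 and 0.25. The 2 that rose were Rasa3 at 0.25 (SE 0.05) and Lztr1, an adaptor for the degradation of Ras proteins, at 0.30 (SE 0.05). Rasa2 measured -0.21 (SE 0.08) and did not pass (limma adjusted p = 0.12). The count of 2 higher was 1 with arrays scaled to a common median, where Rasa3 did not pass. The count of 6 lower stayed at 6 without control replicate 3, was 7 without miR-222 replicate 2, and was 5 without any other single array.

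Adaptors between receptors and Sos went both ways, with 3 of 16 measured genes higher and 4 lower. Grb2, the adaptor that carries Sos to receptors, rose by 0.24 (SE 0.04, limma adjusted p = 0.00386). Shc1, which links receptors to Grb2, fell to 9.48 ± 0.04 log2 units with miR-222, against 10.02 ± 0.09 with control, a difference of -0.54 (SE 0.05, limma adjusted p = 4.21e-04). Irs1, the insulin receptor substrate, fell by 0.43 (SE 0.04), Crkl by 0.17 and Gab1 by 0.14, while Nck2 rose by 0.22 and Dok1, an adaptor that recruits Rasa1, by 0.35. Gab1 kept its call when miR-222 replicate 3 was the array left out and lost it in the other 7 such fits. Dok1 kept its call in the fits that left out miR-222 replicate 2 or 3 and lost it in the other 6. With the dim 40% of probe sets left out, 5 of the 14 remaining genes of the list were higher and 5 lower. More of all genes passed under that filter too, 4256 beside 3580 without it, from fewer tested.

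Among 19 measured effectors and ERK cascade genes, 3 rose and 4 fell. The Raf kinase genes Araf and Braf both fell, with a difference of -0.40 for Araf (SE 0.04, limma adjusted p = 3.67e-04) and of -0.39 for Braf (SE 0.05, limma adjusted p = 0.00135). Pik3cb, a catalytic subunit of phosphoinositide 3-kinase, rose by 0.25 (SE 0.04) and the MEK scaffold gene Lamtor3 by 0.16. Of genes with a Ras association domain, Rassf5 rose by 0.55 (SE 0.15), while Rassf4 and Rassf3 had differences of -0.44 and -0.14. The call of Rassf3 was lost without any single array, that of Rassf5 without any control array or miR-222 replicate 4, and that of Lamtor3 on leaving out miR-222 replicate 4 or control replicate 1 or 3. The list count of 3 higher was 1 on leaving out control replicate 1 or 3, and also with arrays scaled to a common median.

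Diacylglycerol kinases remove the lipid that recruits RasGRP1 and RasGRP3. Their genes and those of protein kinase C gave 0 of 11 measured genes past the threshold in limma. At an unadjusted p under 0.05, 2 were higher and 1 was lower, and the differences ran from -0.23 to 0.26. Without miR-222 replicate 3, 1 was higher and 1 lower, and without miR-222 replicate 4, 1 was higher. With the dim 40% of probe sets left out, 2 of the 6 remaining genes were higher and 1 lower. Over all 11 genes the counts were 2 and 1 with the trend and robust prior of limma, and 1 and 1 with array quality weights. After quantile normalization 1 was higher. Over all genes, 4256 passed with the dim probe sets left out, from fewer tested. With all 14506 genes kept, 3580 passed as deposited, 4189 with that prior, 3905 with those weights and 3592 after quantile normalization.

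Of 12 measured genes of the lipid modification, processing and traffic of Ras, 3 rose and 2 fell. Zdhhc9, a subunit of the enzyme that palmitoylates Hras and Nras, had 9.27 ± 0.10 log2 units with miR-222 and 10.02 ± 0.06 with control, a difference of -0.75 (SE 0.06, limma adjusted p = 1.58e-04). Pggt1b, a subunit of a prenyltransferase, fell by 0.59 (SE 0.07). Abhd17a and Abhd17b, of the enzymes that take palmitate off Nras, rose by 0.38 and 0.25, and the protease gene Rce1, which trims prenylated proteins, rose by 0.19. With arrays scaled to a common median Rce1 did not pass, and 2 genes of the list were higher.

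Transcripts that ERK signalling is known to raise, or that feed back on it, were lower in 10 of 17 measured genes, where 13.0% of all genes were lower, and higher in 0. The count at an unadjusted p under 0.05 was 10 lower and 1 higher. Phlda1 fell by 1.14 (SE 0.08, limma adjusted p = 7.81e-05), Ccnd1, which encodes cyclin D1, by 1.08 (SE 0.05), Dusp6, a phosphatase gene that acts on ERK, by 1.06 (SE 0.08), and Dusp4 by 0.89 (SE 0.04). With each array left out in turn, 10 or 11 of the 17 were lower. These genes were listed with earlier results for some of them known, so the count is no independent evidence of a direction. Summed fibroblast markers were at 8293 to 9474 units with miR-222 and 9410.0 to 10418 units with control, with 2 of 10 lower, and their part in these counts was not tested.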

How the data were processed

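The authors deposited intensity values on a linear scale, from 0.8 to 16339, for 29170 probe sets on 8 arrays, processed and normalized by a method not given in the sources used here. The series text names another Affymetrix rat array than the annotation that pairs with the table, which is that of the Rat Gene 1.0 ST array. A single gene was paired with 15310 probe sets, several genes with 323 and no gene with 13537, and coordinates of the array's own build were not used. Groups came from the labels, and replicates are numbered in the listed order. Values were taken as log2 with no pseudocount. All probe sets were fitted with limma 3.58.1 in R 4.3.3 (lmFit and eBayes, 2 groups, no covariate), with 2-sided p-values adjusted by Benjamini and Hochberg over all probe sets and a threshold of 0.05. The fit was tested on data simulated with independent normal errors of the fitted spread. Such data meet the assumptions of the fit and cannot show whether arrays of a group came from separate cultures. Precision is limited by the 4 arrays per group. The 9 genes, the pathway and marker lists and the tests were chosen with earlier results of these data known. Named pathway genes are, per list, up to 4 past the threshold with the smallest p in each direction, plus close relatives of the 9 genes (Rasgrp4, Rasgrf1, Rasgrf2, Rasa2 and Rasa3) whatever their values, and others that the rule names are not reported here. Sequences are from RefSeq tables (GRCr8). Tables and plots used Python 3.11.15 and matplotlib 3.10.9.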

Additional observations from a re-analysis of the deposited data

Results flagged for a closer look

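Dixon's test at the 95% limit for 4 arrays was applied to each group of the 9 genes and of the named pathway genes, 102 groups in all. An array lay beyond the limit in 8 of them, where chance gives about 5% of groups. The only one among the 9 genes was control replicate 2 for Rasgrp2, at 7.31 log2 units where the other control arrays lay from 7.71 to 7.79. For miR-222 replicate 2 the values were 8.32 for Rasl11a (others from 8.47 to 8.49), 10.44 for Sipa1l2 (others from 10.34 to 10.36) and 8.56 for Irs1 (others from 8.599 to 8.602). In miR-222 replicate 1 Lamtor3 stood at 11.49 (others from 11.549 to 11.552). In control replicate 3 Rassf4 stood at 8.05 (others from 7.82 to 7.84) and Rce1 at 9.32 (others from 9.261 to 9.264). In control replicate 4 Dok1 stood at 7.84 (others from 7.97 to 7.98).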

How the results depend on the processing

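Under 15 alternatives (8 that leave out 1 array each, and 7 of pseudocount, scaling, filter, moderation, weights or probe set averaging) the counts of the 9 genes past the threshold stayed at 3 higher and 3 lower, and no difference moved by as much as the gene's SD between replicates, pooled over both groups. Hras, which did not pass, lay between -0.03 and 0.02 and changed sign. Of the pathway genes 9 rose with arrays scaled to a common median, beside 14 with all probe sets as deposited. With the dim 40% of probe sets left out, which removes some pathway genes, 22 rose. Over all genes, 3053, 3580 and 4256 passed in either direction in these fits, in the order scaled, as deposited and filtered. The last count came from fewer genes tested. Over all probe sets, 1827 were higher with that scaling and 2604 as deposited, and 2948 and 2904 were lower. The cause of these shifts was not tested. Of 37 named pathway genes past the threshold, 37 kept their direction under all 15 alternatives and 26 also their call. Rasgrf1 and Rasgrf2, which did not pass, turned to -0.018 without control replicate 2 and to -0.025 without miR-222 replicate 2, over ranges of -0.018 to 0.17 and -0.025 to 0.18 with 1 array left out. No paired analysis was possible because the labels give no replicate numbers. No detection calls were used, so how near dim probe sets such as those of Rasgrp4 and Rasgrf1 lie to background is not known.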
